A study of Mus musculus with 12 samples.

Results

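The 10 genes described here are the Ink4a Arf locus, p53 and the cyclin-dependent kinase (CDK) inhibitors with their closest partners: Cdkn2a, Cdkn2b, Cdkn2c, Cdkn1a, Cdkn1b, Cdkn1c, Trp53, Mdm2, Rb1 and Cdk4. They were chosen by symbol from 24054 gene symbols, with earlier results of these data known. All 10 passed the filter that left 14860 genes for testing. RNA was sequenced from 12 mouse colon libraries in 3 groups of 4. The BTPRZ-T group is tumour of the genotype BrafV600E;Tgfbr2-/-;Rnf43-/-/Znrf3-/-;p16 Ink4a-/-, the BT-T group is tumour of the genotype BrafV600E;Tgfbr2-/-, and the N group is wild-type normal colon, all of the immunodeficient NSG strain, which lacks lymphocytes. Per the series title, the tumours came from edited colonic organoids, which are cultured epithelium, placed in the colon, so their other cells would come from the host. Neither ages nor the source of replicates (separate animals, clones or repeat samples) are in the labels, so p-values measure the spread between these libraries, which may be technical.

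CDK inhibitors are the brakes of the cell cycle. INK4 proteins (p16 Ink4a from Cdkn2a, p15 from Cdkn2b, p18 from Cdkn2c) bind CDK4 and CDK6 and keep them from D cyclins, so that the RB1 protein stays active and holds back E2F transcription factors. CIP/KIP proteins (p21 from Cdkn1a, p27 from Cdkn1b, p57 from Cdkn1c) bind cyclin-CDK complexes, mainly those of CDK2. The Arf protein, read from Cdkn2a in another frame, blocks the ubiquitin ligase MDM2, which otherwise degrades p53, and p53 in turn drives Cdkn1a and Mdm2. In serrated colon tumours, BRAF activation with silencing or loss of p16 Ink4a is a known combination.

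Gene reads came to 15732004 to 26052772 per library. Genes with at least 1 read numbered 13450 in BTPRZ-T replicate 4, 14175 in N replicate 2 and 14697 in BTPRZ-T replicate 1. The other libraries held 16131 to 17266. Levels are in CPM, read counts of a gene divided by library sizes that TMM corrects for composition. Libraries differed in how levels depended on transcript length. The slope, in log2 level per doubling of length against the mean of all libraries, was −0.743 in N replicate 2 and −0.434 in BTPRZ-T replicate 1, −0.159 to 0.0742 in the other BTPRZ-T libraries, 0.0481 to 0.264 in BT-T and 0.161 to 0.252 in N replicates 1, 3 and 4. Genes for ribosomal proteins took 10.9% of gene reads in N replicate 2 and 8.99% in BTPRZ-T replicate 1, against 1.56 to 5.45% elsewhere. Of the other edited genes, Braf stood at 14.1 to 57.1 CPM in BTPRZ-T, 45.7 to 60.3 CPM in BT-T, with 14.5 to 75.6 CPM in N (log2 fold change −0.76 ± 0.48 in BTPRZ-T against N and −0.76 ± 0.48 against BT-T, edgeR adjusted p 0.359 and 0.423). Tgfbr2 stood at 149.0 to 271 CPM in BTPRZ-T, below every BT-T library at 314 to 527 CPM, with 71.1 to 286 CPM in N (−1.06 ± 0.37 in BTPRZ-T against BT-T, edgeR adjusted p = 0.175). Rnf43 stood at 82.9 to 193 CPM in BTPRZ-T, 56.9 to 87.2 CPM in BT-T, with 19.3 to 74.6 CPM in N. It was called higher in BTPRZ-T against N (1.76 ± 0.38, edgeR adjusted p = 0.0112) but not against BT-T (1.13 ± 0.37, 0.160). Znrf3 stood at 16.7 to 37.3 CPM in BTPRZ-T, 19.7 to 30.4 CPM in BT-T, with 1.90 to 39.1 CPM in N. An edited allele can still be transcribed, so reads summed over a gene do not check these genotypes. Defining epithelial markers such as Epcam were read in every library, and the 10 epithelial markers summed to 8324 to 17245 CPM in BTPRZ-T, 9557 to 11519 CPM in BT-T, with 11252 to 13396 CPM in N. Fewer cells of a type and less RNA per cell cannot be told apart in such bulk tissue.

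Cdkn2a lies on chromosome 4 (89274471 to 89294653, minus strand, GENCODE M21 on GRCm38) and has a pair of promoters. The Arf transcript starts upstream, with a first exon of 320 bases (89294334 to 89294653). The p16 Ink4a transcript starts inside the first intron of Arf, with a first exon of 207 bases (89281986 to 89282192), and both share the second exon of 341 bases (89276645 to 89276985) in different reading frames. Because the counts are summed over the whole gene, they cannot separate p16 Ink4a from Arf. Next to it lie Cdkn2b (89306299 to 89311039, minus strand), whose p15 protein resembles p16 Ink4a, and Mtap (89137122 to 89181081, plus strand), a methionine salvage enzyme. The promoter windows of this locus are shown because its neighbouring genes moved differently. They are RefSeq windows on GRCm38.p6, read 5′ to 3′ on the gene's strand, from 250 bases before to 50 bases after the start, with each GC box (GGGCGG, searched on both strands) in capitals.
Arf start of Cdkn2a, chr4:89294570-89294869, minus strand: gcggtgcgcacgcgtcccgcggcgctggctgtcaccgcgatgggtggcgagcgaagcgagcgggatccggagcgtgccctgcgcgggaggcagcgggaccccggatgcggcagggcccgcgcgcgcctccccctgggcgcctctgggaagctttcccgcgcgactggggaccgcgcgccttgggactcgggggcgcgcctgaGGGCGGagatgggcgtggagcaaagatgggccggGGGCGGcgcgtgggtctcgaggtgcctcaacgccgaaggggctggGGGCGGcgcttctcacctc
p16 Ink4a start of Cdkn2a, chr4:89282143-89282442, minus strand: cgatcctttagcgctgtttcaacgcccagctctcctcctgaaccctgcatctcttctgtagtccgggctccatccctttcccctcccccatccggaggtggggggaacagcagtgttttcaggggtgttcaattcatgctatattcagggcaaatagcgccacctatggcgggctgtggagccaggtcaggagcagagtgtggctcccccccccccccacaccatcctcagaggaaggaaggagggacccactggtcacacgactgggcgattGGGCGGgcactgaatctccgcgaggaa
Cdkn2b, chr4:89310983-89311282, minus strand: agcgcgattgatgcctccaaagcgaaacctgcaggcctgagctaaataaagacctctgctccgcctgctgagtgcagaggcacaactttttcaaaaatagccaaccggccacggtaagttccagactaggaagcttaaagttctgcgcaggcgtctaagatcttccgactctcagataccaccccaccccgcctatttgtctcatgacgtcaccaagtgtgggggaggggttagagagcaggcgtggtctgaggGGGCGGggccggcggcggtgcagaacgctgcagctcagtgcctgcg
Mtap, chr4:89137120-89137419, plus strand: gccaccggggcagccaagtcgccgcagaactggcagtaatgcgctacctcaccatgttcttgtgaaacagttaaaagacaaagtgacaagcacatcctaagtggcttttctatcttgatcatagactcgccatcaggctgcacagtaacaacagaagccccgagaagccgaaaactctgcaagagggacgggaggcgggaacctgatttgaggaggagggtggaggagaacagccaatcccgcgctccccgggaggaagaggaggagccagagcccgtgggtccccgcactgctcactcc
The Arf window was 77.0% G or C with 45 CpG dinucleotides and 3 GC boxes. At the p16 Ink4a start the window was 60.3% G or C with 12 CpG and 1 GC box, and at Cdkn2b 57.7% with 18 CpG and 1 GC box. Mtap had 57.0% with 14 CpG and no GC box. Over 32851 windows of the same length, the medians were 52.7% and 7 CpG, and 35.7% held a GC box. The Arf start is thus the most CpG-rich of these 4 windows, a description that says nothing of which start was used.

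In both tumour groups Cdkn2a rose far above normal colon, while its neighbour Cdkn2b did not pass the test. Cdkn2a stood at 31.4, 19.96, 25.6 and 18.8 CPM in BTPRZ-T, at 8.75, 10.7, 15.8 and 8.21 CPM in BT-T, and at 0.230, 0.271, 0.354 and 0.270 CPM in N. These rest on 1797, 1013 and 18 reads over the 4 libraries of BTPRZ-T, BT-T and N. Every tumour library was above every N library, and every BTPRZ-T library was above every BT-T library. The log2 fold change was 6.38 ± 0.38 (SE; 83.0-fold) in BTPRZ-T against N, with an edgeR quasi-likelihood adjusted p of 8.48e-06, the lowest p of all 14860 genes. It was 5.24 ± 0.37 (37.8-fold) in BT-T against N, with an edgeR adjusted p of 2.86e-05, rank 2 by p. Both calls held under all 25 alternatives run. Between the tumours the log2 fold change of Cdkn2a was 1.14 ± 0.29 in BTPRZ-T against BT-T, which missed the threshold (edgeR adjusted p = 0.0905). That comparison passed in 5 of 25 alternatives, among them the fit without N replicate 2 (adjusted p = 0.0158), and with each library's length trend removed the difference was 0.42 (adjusted p = 0.605). So the libraries labelled p16 Ink4a-/- held no fewer Cdkn2a reads than BT-T.

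**Figure D1:**
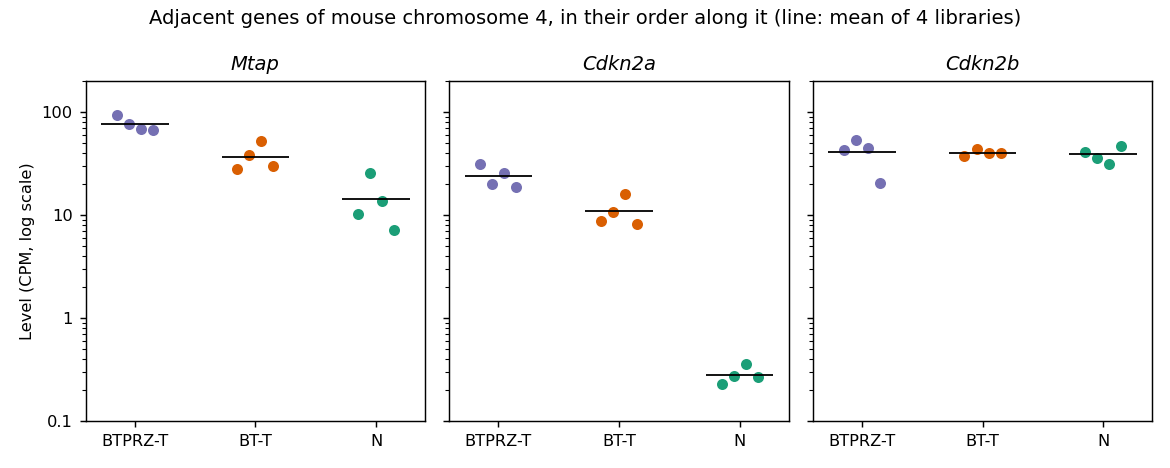
Levels (CPM, log scale) of Mtap, Cdkn2a and Cdkn2b, in their order along mouse chromosome 4, in each of the 4 BTPRZ-T, 4 BT-T and 4 N libraries (points; line, mean). Cdkn2a stands at 18.8 to 31.4 CPM in BTPRZ-T and 8.21 to 15.8 CPM in BT-T, against 0.230 to 0.354 CPM in N, Mtap also steps down from left to right, and the Cdkn2b groups overlap.

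Of the 10 genes, 3 were called in BTPRZ-T against N (Cdkn2a higher, Cdkn1c and Rb1 lower), where 11.8% of all genes tested were called (5.66% higher, 6.18% lower). In BT-T against N, 1 of 10 was called, Cdkn2a, where 8.57% of all genes were called (5.67% higher, 2.9% lower). In BTPRZ-T against BT-T, 1 of 10 was called, Cdkn1c, which was lower, where 0.754% of all genes were called (0.155% higher, 0.599% lower). Libraries of the compared groups did not overlap for 3 of the 10 genes in BTPRZ-T against N, 1 in BT-T against N and 4 in BTPRZ-T against BT-T, beside 14.5, 22.4 and 24.2% of all genes. The median log2 fold change of the 10 genes was 0.09 in BTPRZ-T against N, 0.01 in BT-T against N and 0.28 in BTPRZ-T against BT-T, beside −0.10, −0.10 and −0.03 over all genes tested. Apart from Cdkn2a, Cdkn1c and Rb1, none of the genes was called in any comparison, and several spread widely among N libraries. Without a call, BTPRZ-T still did not overlap BT-T for Cdkn2a, Rb1 and Cdk4, or N for Trp53.

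**Figure D2:**
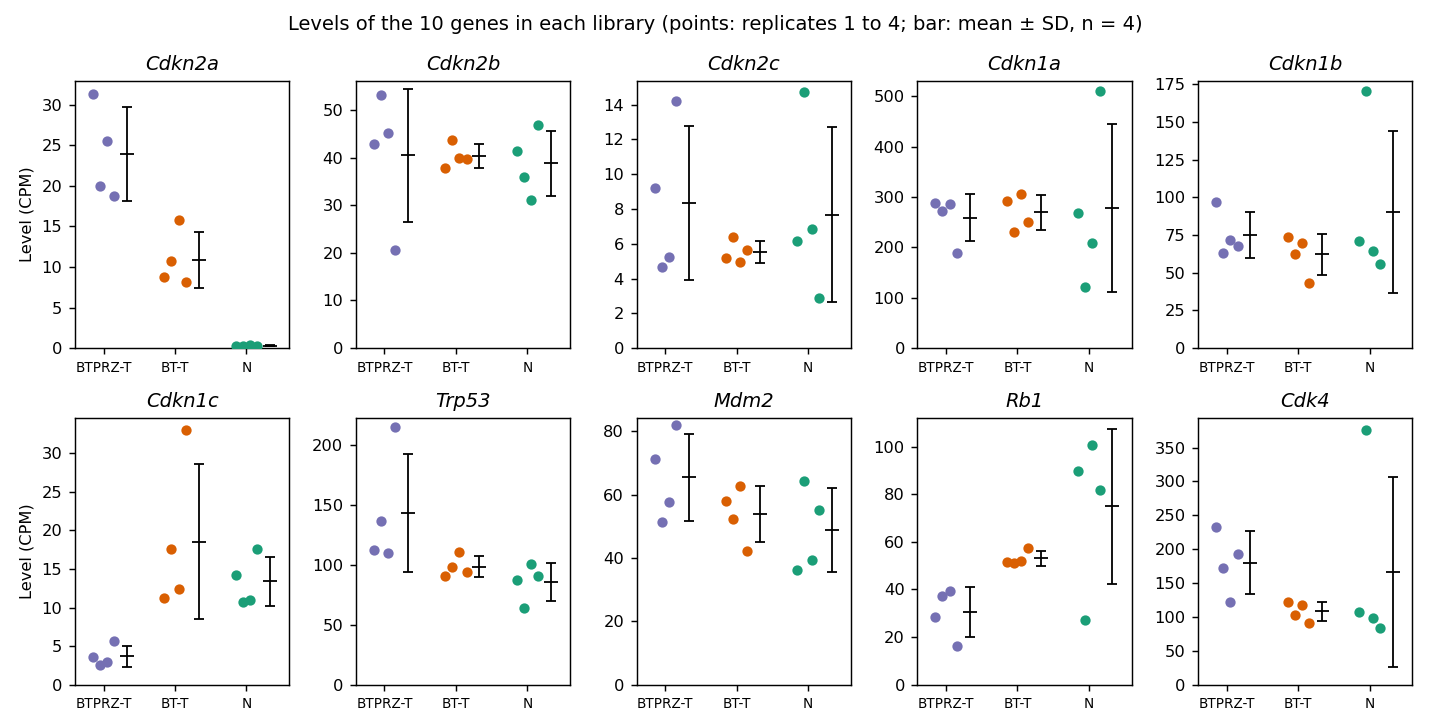
Levels (CPM, linear scale) of the 10 genes in each library (points, replicates 1 to 4 of BTPRZ-T, BT-T and N; bar, mean ± SD, n = 4). Cdkn2a levels do not overlap between the 3 groups, but the difference between the tumours was not called (edgeR adjusted p = 0.0905). Cdkn1c is lowest in BTPRZ-T at 2.54 to 5.63 CPM, and N replicate 2 stands apart for Cdk4 at 377 CPM.

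**Figure D3:**
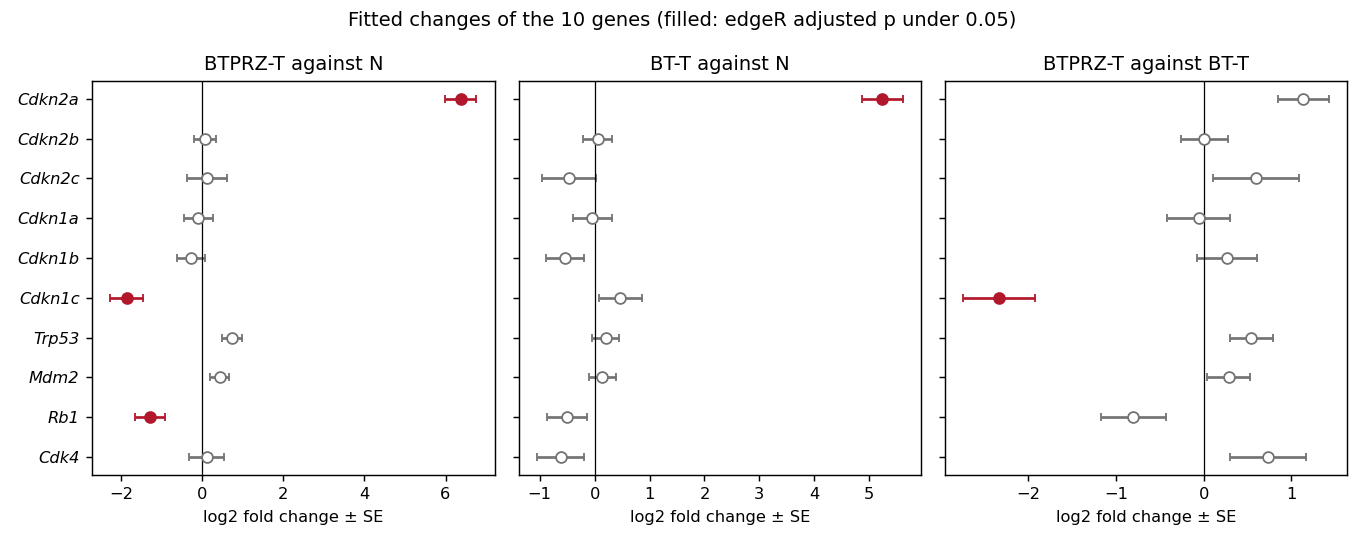
Log2 fold changes ± SE of the 10 genes in the 3 comparisons (x axis, with its own range in each panel; filled red points, edgeR adjusted p under 0.05). Cdkn2a lies at 6.38 and 5.24 against N, and Cdkn1c is the gene called between the tumour groups, at −2.33.

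Cdkn2b encodes p15, an INK4 inhibitor that TGF-beta induces in epithelial cells. It stood at 42.9, 53.1, 45.2 and 20.6 CPM in BTPRZ-T, 37.8, 43.8, 39.8 and 39.8 CPM in BT-T and 41.3, 35.9, 31.0 and 46.8 CPM in N. BTPRZ-T replicate 4 was the lowest of the 12, and the groups overlapped throughout. The log2 fold change of Cdkn2b was 0.06 ± 0.27 in BTPRZ-T against N (edgeR adjusted p = 0.930), 0.06 ± 0.27 in BT-T against N (0.931) and 0.01 ± 0.27 between the tumours (0.992). Per kilobase of the longest transcript, the ratio of the Cdkn2a level to the Cdkn2b level was 0.584 to 1.41 in BTPRZ-T, 0.321 to 0.617 in BT-T and 0.00865 to 0.0177 in N. Within the INK4 family (Cdkn2a to Cdkn2d, summed per kilobase), Cdkn2a made up 32.7 to 43.8% in BTPRZ-T, 20.4 to 32.6% in BT-T and 0.672 to 1.22% in N. In N the family was mainly Cdkn2b, at 61.0 to 86.7% of the sum, against 30.7 to 56.0% in BTPRZ-T and 52.9 to 63.6% in BT-T.

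Mtap stood at 75.9 ± 12.03 CPM in BTPRZ-T, 36.9 ± 10.7 CPM in BT-T and 14.2 ± 8.09 CPM in N (SD, n = 4 each). It rose in BTPRZ-T against N (log2 fold change 2.42 ± 0.37, edgeR adjusted p = 0.00166, passed in 25 of 25 alternatives) and in BT-T against N (1.38 ± 0.36, adjusted p = 0.0325, passed in 17 of 25). Leaving out BT-T replicate 2, 3 or 4, BTPRZ-T replicate 2, or N replicate 1, 3 or 4 took the BT-T call to adjusted p between 0.0510 and 0.111. Between the tumours its log2 fold change was 1.04 ± 0.35 (adjusted p = 0.167). Of 9 tested neighbours on chromosome 4 outside the 10 genes, 2 rose in BTPRZ-T against N and 1 in BT-T against N, single genes beside 5.66 and 5.67% of all genes called higher. The other was Elavl2, a neuronal RNA-binding protein, at 3.08 ± 3.402 CPM in BTPRZ-T, 2.94 ± 1.02 CPM in BT-T and 0.387 ± 0.257 CPM in N (BTPRZ-T against N 2.97 ± 0.84, adjusted p = 0.0377). That call passed in 12 of 25 alternatives. It was lost without any 1 of the 4 BT-T libraries, of BTPRZ-T replicates 2 and 4 or of N replicates 1, 3 and 4, at adjusted p 0.0535 to 0.108. Elavl2 lies further from Cdkn2a than Mtap does, at 91250763 to 91400785. The Ifna genes nearest to Mtap, at 88819959 to 88850656 with other genes between, were read at or near 0 in every group.

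Cdkn2c encodes p18, an INK4 protein with roles in differentiation and lymphoid cells. It stood at 9.23, 4.69, 5.23 and 14.2 CPM in BTPRZ-T, 5.19, 6.38, 4.95 and 5.62 CPM in BT-T and 6.16, 14.8, 6.85 and 2.90 CPM in N. BTPRZ-T replicate 4 and N replicate 2 were high, and all groups overlapped. Its log2 fold change was 0.12 ± 0.49 in BTPRZ-T against N, −0.47 ± 0.49 in BT-T against N and 0.59 ± 0.49 between the tumours, none called (edgeR adjusted p 0.922, 0.615 and 0.536). The remaining INK4 gene, Cdkn2d (p19), averaged 9.59 ± 3.75 CPM in BTPRZ-T, 7.91 ± 1.26 CPM in BT-T and 9.51 ± 3.88 CPM in N (SD, n = 4 each) and was not called in any comparison (edgeR adjusted p 0.714 to 0.990).

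Among CIP/KIP genes, Cdkn1c was lower in BTPRZ-T than in both other groups, and Cdkn1a and Cdkn1b did not pass the test anywhere. Cdkn1c encodes p57, an imprinted inhibitor read from the maternal allele, and lies on chromosome 7 (143458339 to 143461050, minus strand). It stood at 3.55, 2.54, 2.97 and 5.63 CPM in BTPRZ-T, 11.3, 17.5, 12.4 and 33.03 CPM in BT-T and 14.3, 10.8, 10.99 and 17.5 CPM in N. Every BTPRZ-T library was below every library of the other groups, and BT-T overlapped N, with BT-T replicate 4 the highest of all. Cdkn1c fell in BTPRZ-T against N (log2 fold change −1.86 ± 0.40, edgeR adjusted p = 0.0108), a call that held under all 25 alternatives, with adjusted p at most 0.0376. It fell also in BTPRZ-T against BT-T (−2.33 ± 0.41, adjusted p = 0.0324), where 17 of 25 alternatives kept the call. Leaving out BT-T replicate 1, 2 or 4, BTPRZ-T replicate 1, 2 or 3, or N replicate 1 gave adjusted p of 0.0577 to 0.121 there. Its difference in BT-T against N was 0.47 ± 0.39 (adjusted p = 0.499).

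Smooth muscle and fibroblast markers also differed between the groups. The 7 smooth muscle markers summed to 379 to 3723 CPM in BTPRZ-T, 3063 to 5001 CPM in BT-T, with 6399 to 13052 CPM in N, with none at 0 in any group, and 5 of 7 fell in BTPRZ-T against N and 2 of 7 in BTPRZ-T against BT-T. The 10 fibroblast markers summed to 2013 to 9087 CPM in BTPRZ-T, 8979 to 17588 CPM in BT-T, with 1153 to 1943 CPM in N. In most BTPRZ-T libraries the sum was thus below every BT-T library, and in all it was above every N library. Against N, edgeR called 5 of the 10 higher in BTPRZ-T, where 9 of 10 had a positive fitted change. Smooth muscle sums were lower in every BT-T library than in every N library. There edgeR called 0 of the 7 smooth muscle markers (2 at an unadjusted p under 0.05). Between the tumours it called 0 of the 10 fibroblast markers (9 at an unadjusted p under 0.05). Their part in the Cdkn1c result was not tested. The genes whose log2 levels followed Cdkn1c most closely over the 12 libraries were Clec3b (Pearson r = 0.942), Sfrp5 (0.935) and Tnxb (0.928). Sfrp5 was near 0 in BTPRZ-T, at 0.036 CPM on average, against 3.30 CPM in BT-T and 2.36 CPM in N (Spearman rho 0.761). Clec3b was also low in BTPRZ-T, at 1.41 CPM on average, against 12.97 CPM in BT-T and 8.71 CPM in N. Tnxb, a matrix glycoprotein of connective tissue, averaged 7.40 CPM in BTPRZ-T, 60.6 CPM in BT-T and 76.7 CPM in N, and these points share libraries and depth.

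Of 14 tested genes in the imprinted domain around Cdkn1c, none was called in BTPRZ-T against N by edgeR (3 at an unadjusted p under 0.05; 2 called by DESeq2, 0 by limma with voom and 11 by voom with sample quality weights). In BT-T against N 1 was called, Slc22a18, a transporter of the same domain, beside 2.9% of all genes called lower. It fell to 41.8 ± 3.53 CPM in BT-T, against 101.3 ± 31.5 CPM in N (log2 fold change −1.28 ± 0.33, edgeR adjusted p = 0.0333). The call passed in 16 of 25 alternatives. Without any 1 of the 4 BT-T libraries, BTPRZ-T replicate 2 or N replicate 1 or 3 its adjusted p was 0.0503 to 0.113. In BTPRZ-T against N its log2 fold change was −1.01 ± 0.33 (adjusted p = 0.0691), and between the tumours 0.27 ± 0.33 (0.682). Without N replicate 2 edgeR called 4 of the 14 in BTPRZ-T against N (3 higher, 1 lower), 2 in BT-T against N (both lower) and 1 between the tumours (higher). The BTPRZ-T count was 1 without BTPRZ-T replicate 3, and the BT-T count was 2 without BTPRZ-T replicate 4.

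Cdkn1a, the p21 gene and a standard p53 target (chromosome 17, 29090976 to 29100727, plus strand), stood at 288, 273, 286 and 189.6 CPM in BTPRZ-T, 293, 231, 305 and 249.8 CPM in BT-T and 269, 122, 209 and 511 CPM in N. The tumour libraries lay close together inside the wide range of N, whose replicate 4 was the highest and replicate 2 the lowest of all 12. Its log2 fold change was −0.10 ± 0.36 in BTPRZ-T against N, −0.04 ± 0.36 in BT-T against N and −0.06 ± 0.36 between the tumours (edgeR adjusted p 0.912, 0.963 and 0.943). Per kilobase, Cdkn1a made up 83.6 to 89.6% of the CIP/KIP sum in BTPRZ-T, 81.7 to 87.1% in BT-T and 57.7 to 92.0% in N, so p21 was the most abundant CIP/KIP transcript in every library.

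Cdkn1b encodes p27, a quiescence-linked inhibitor (chromosome 6, 134920401 to 134925513, plus strand). It stood at 96.9, 63.1, 71.9 and 67.8 CPM in BTPRZ-T, 73.4, 62.2, 69.6 and 43.4 CPM in BT-T and 70.9, 170.4, 64.6 and 55.7 CPM in N. N replicate 2 was far above the rest, and all groups overlapped. Its log2 fold change was −0.27 ± 0.34 in BTPRZ-T against N, −0.54 ± 0.34 in BT-T against N and 0.27 ± 0.34 between the tumours, none called (edgeR adjusted p 0.697, 0.358 and 0.694). Of 13 genes for the turnover or import of CDK inhibitors, such as Skp2, the F-box protein that marks p27 for degradation, edgeR called 0 in each comparison. At an unadjusted p under 0.05 there were 2 in BTPRZ-T against N, 1 in BT-T against N and 2 between the tumours. DESeq2 called 2, 0 and 1 of them in the same order of comparisons, limma with voom 0 in each, and voom with sample quality weights 6, 3 and 6. Leaving out N replicate 2, edgeR called 6 of the 13 in BTPRZ-T against N (4 higher, 2 lower) and 4 between the tumours (3 higher, 1 lower).

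Trp53, the p53 gene (chromosome 11, 69580359 to 69591873, plus strand), stood at 112, 137, 110.0 and 215 CPM in BTPRZ-T, 91.1, 98.3, 111 and 94.0 CPM in BT-T and 87.9, 63.8, 100.7 and 90.9 CPM in N. All BTPRZ-T libraries were above all N libraries, BTPRZ-T replicate 4 most of all, but BTPRZ-T and BT-T overlapped at 1 library of each. The log2 fold change was 0.74 ± 0.25 in BTPRZ-T against N and missed the threshold (edgeR adjusted p = 0.0718). It passed in 5 of 25 alternatives, DESeq2 (adjusted p = 0.0287) and removal of the length trend (0.0412) among them, and without BTPRZ-T replicate 4 it was 0.50 (adjusted p = 0.167). The BT-T against N value was 0.20 ± 0.25 (0.679), and between the tumours 0.54 ± 0.25 (0.284).

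Mdm2, the p53 ubiquitin ligase and itself a p53 target (chromosome 10, 117688875 to 117710758, minus strand), stood at 71.2, 51.4, 57.5 and 81.9 CPM in BTPRZ-T, 57.8, 52.4, 62.7 and 42.1 CPM in BT-T and 36.2, 64.3, 39.4 and 55.1 CPM in N. The 3 groups overlapped. Its log2 fold change was 0.43 ± 0.24 in BTPRZ-T against N, 0.14 ± 0.24 in BT-T against N and 0.29 ± 0.24 between the tumours (edgeR adjusted p 0.309, 0.783 and 0.548). Its paralog Mdm4, which binds p53 without degrading it alone, averaged 37.2 ± 7.67 CPM in BTPRZ-T, 33.5 ± 6.58 CPM in BT-T and 31.8 ± 7.10 CPM in N (SD, n = 4 each) and was not called. Of 18 tested p53 regulators, including Atm, Chek2 and Mdm4, edgeR called 0 in each comparison (2, 1 and 1 at an unadjusted p under 0.05 in BTPRZ-T against N, BT-T against N and between the tumours; DESeq2 called 1, 0 and 0, limma with voom 0 in each, and voom with sample quality weights 10, 3 and 7). The edgeR fit without N replicate 2 called 4 of the 18 in BTPRZ-T against N (3 higher, 1 lower) and 3 between the tumours, all higher.

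Some p53 target genes rose in the tumours although Cdkn1a and Mdm2 did not pass. Outside the 10 genes, 6 of 26 tested targets were higher in BTPRZ-T against N and 5 of 26 in BT-T against N, none lower, beside the 5.66% and 5.67% of all genes called higher. Their median log2 fold change was 0.40 in BTPRZ-T against N and 0.33 in BT-T against N, where that of all genes was −0.10 in both. Both comparisons use the same N libraries. With the compared groups alone the count was 3 in each comparison, and voom with sample quality weights called 18 in BTPRZ-T against N (14 higher, 4 lower) and 10 in BT-T against N, all higher. Cell type markers differed between the same groups. The 9 absorptive colonocyte markers summed to 608 to 1537 CPM in BTPRZ-T, 575 to 2058 CPM in BT-T, with 7841 to 9956 CPM in N, with none at 0, and 8 of 9 fell in each tumour group against N. Of 10 fibroblast markers, 5 rose in BTPRZ-T and 9 in BT-T, and of 9 macrophage markers 4 and 5. Their part in the p53 target values was not tested. The receptor gene Eda2r averaged 27.4 ± 3.76 CPM in BTPRZ-T, 19.9 ± 5.07 CPM in BT-T and 6.23 ± 1.56 CPM in N (SD, n = 4 each). It rose by a log2 fold change of 2.13 ± 0.28 in BTPRZ-T (edgeR adjusted p = 0.000684) and 1.67 ± 0.27 in BT-T (0.00282), in 25 of 25 alternatives each. Tnfrsf10b, a TRAIL death receptor, averaged 30.8 ± 4.25 CPM in BTPRZ-T, 32.5 ± 6.95 CPM in BT-T and 12.5 ± 1.94 CPM in N, with log2 fold changes of 1.31 ± 0.23 (adjusted p = 0.00335) and 1.38 ± 0.23 (0.00306) against N.

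Phlda3, a repressor of AKT, averaged 41.1 ± 12.2 CPM in BTPRZ-T, 29.7 ± 4.38 CPM in BT-T and 10.6 ± 7.03 CPM in N, with log2 fold changes of 1.96 ± 0.39 and 1.49 ± 0.38 (edgeR adjusted p 0.00678 and 0.0301). Bax, the pore-forming death effector, rose in BTPRZ-T alone among the calls, at 80.7 ± 20.02 CPM in BTPRZ-T, 37.0 ± 5.23 CPM in BT-T and 26.9 ± 16.4 CPM in N (1.59 ± 0.35 against N, adjusted p = 0.0125; 0.0666 with those 2 groups fitted alone), while its difference between the tumours was 1.13 ± 0.35 (adjusted p = 0.137). Pmaip1 (Noxa, a BH3-only killer) rose in BTPRZ-T (1.26 ± 0.32, adjusted p = 0.0248) and BT-T (1.19 ± 0.32, 0.0402), and so did the kinase gene Plk2 (0.97 ± 0.29, 0.0467, and 1.25 ± 0.29, 0.0196). Calls near the threshold were lost on leaving out any of several libraries, some of them outside the comparison. In BTPRZ-T against N, Plk2 was lost without any 1 of 11 libraries (all but N replicate 2; adjusted p 0.0531 to 0.107) and Pmaip1 without BTPRZ-T replicate 2 or 3 or N replicate 1 (up to 0.0650). In BT-T against N, Phlda3 was lost without any 1 of the BT-T libraries or of N replicates 1, 3 and 4 (up to 0.0900), and Pmaip1 without BT-T replicate 1, 2 or 3, BTPRZ-T replicate 1, 2 or 3, or N replicate 1 or 3 (up to 0.132). Plk2 was lost there without BT-T replicate 2 or 3 (up to 0.0730). The count of 5 in BT-T was 2 without BT-T replicate 2 or 3 and 3 without BT-T replicate 1 or N replicate 1 or 3. Between the tumours edgeR called 0 of 26, or 2 without N replicate 2 (2 at an unadjusted p under 0.05; 2 by DESeq2, 0 by limma with voom, 11 by voom with sample quality weights).

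**Figure D4:**
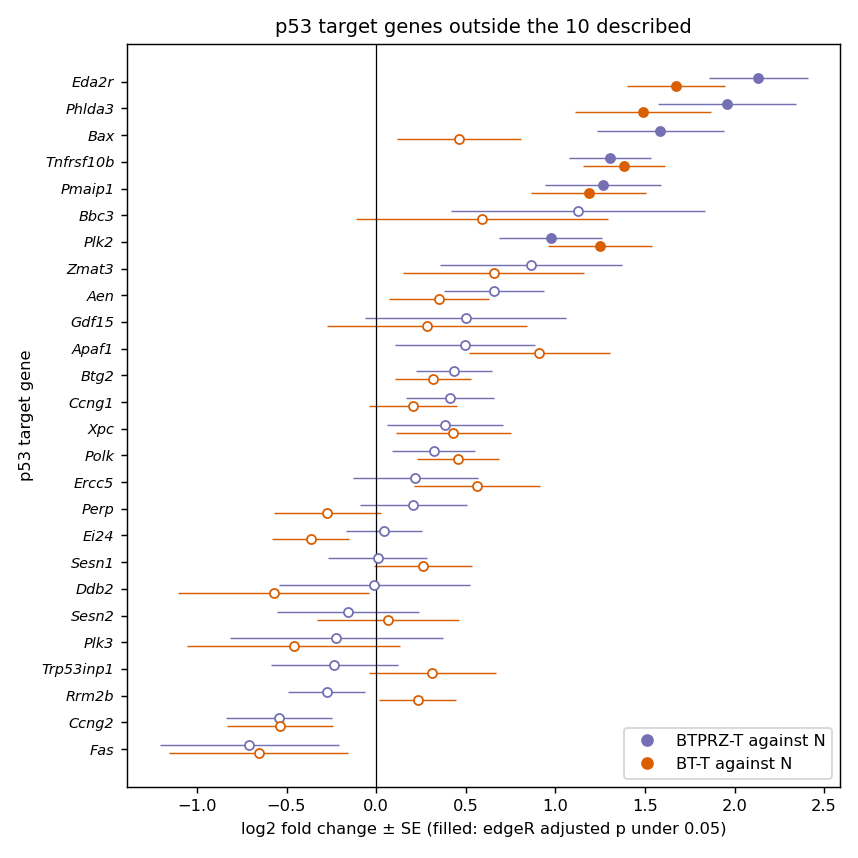
Log2 fold changes ± SE of the 26 tested p53 target genes outside the 10 genes, BTPRZ-T against N and BT-T against N (filled, edgeR adjusted p under 0.05). The filled genes, led by Eda2r at 2.13 and 1.67, all lie to the right of 0, and genes such as Fas lie to the left without a call.

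Rb1, the retinoblastoma gene (chromosome 14, 73183673 to 73325822, minus strand), stood at 28.5, 37.5, 39.4 and 16.4 CPM in BTPRZ-T, 51.5, 50.9, 52.2 and 57.5 CPM in BT-T and 89.9, 27.3, 100.6 and 81.7 CPM in N. BTPRZ-T was below BT-T in every library, and below N except for N replicate 2, the library with the steepest length slope. Rb1 fell in BTPRZ-T against N (log2 fold change −1.30 ± 0.37, edgeR adjusted p = 0.0400), but the call passed in only 12 of 25 alternatives. Leaving out any 1 library other than BTPRZ-T replicate 3 and N replicate 2 took its adjusted p to 0.0593 to 0.110, while without N replicate 2 the log2 fold change was −1.58 (0.000971), and with the length trend removed −1.18 (0.00982). In BTPRZ-T against BT-T the difference was −0.80 ± 0.37 (adjusted p = 0.288), and −0.80 without N replicate 2 (0.0340). The BT-T against N value was −0.50 ± 0.37 (0.439). Rb1 shares sequence with Rcbtb2 and Lpar6 on the opposite strand, which stranded counting keeps apart. The genes most like Rb1 over the 12 libraries were Gid4 (Pearson r = 0.985), Vwa8 (0.979) and Usp12 (0.972), a description over points that share depth and the length slope.

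Cdk4, the kinase that INK4 proteins inhibit (chromosome 10, 127063534 to 127067920, plus strand), stood at 233, 173, 122 and 192 CPM in BTPRZ-T, 122, 103, 117 and 91.3 CPM in BT-T and 107, 377, 98.5 and 84.0 CPM in N. BTPRZ-T was above BT-T in every library, and the largest value was N replicate 2. The log2 fold change of Cdk4 was 0.11 ± 0.43 in BTPRZ-T against N, −0.62 ± 0.43 in BT-T against N and 0.73 ± 0.43 between the tumours, none called (edgeR adjusted p 0.916, 0.411 and 0.398). Without N replicate 2 it was called in BTPRZ-T against N (0.90, adjusted p = 0.00839) and in BTPRZ-T against BT-T (0.73, 0.0251), and the BT-T value turned to 0.17 (0.703). With the length trend removed the values were 0.18, −0.29 and 0.48, none called. Libraries with a lower length slope tended to have higher Cdk4 and lower Rb1 levels, but the slope also differed between the groups. The lowest Rb1, 16.4 CPM in BTPRZ-T replicate 4, came at a slope of −0.159, in the library with the fewest genes read (13450). The part of the slope or of the genes read in these levels was not tested.

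**Figure D5:**
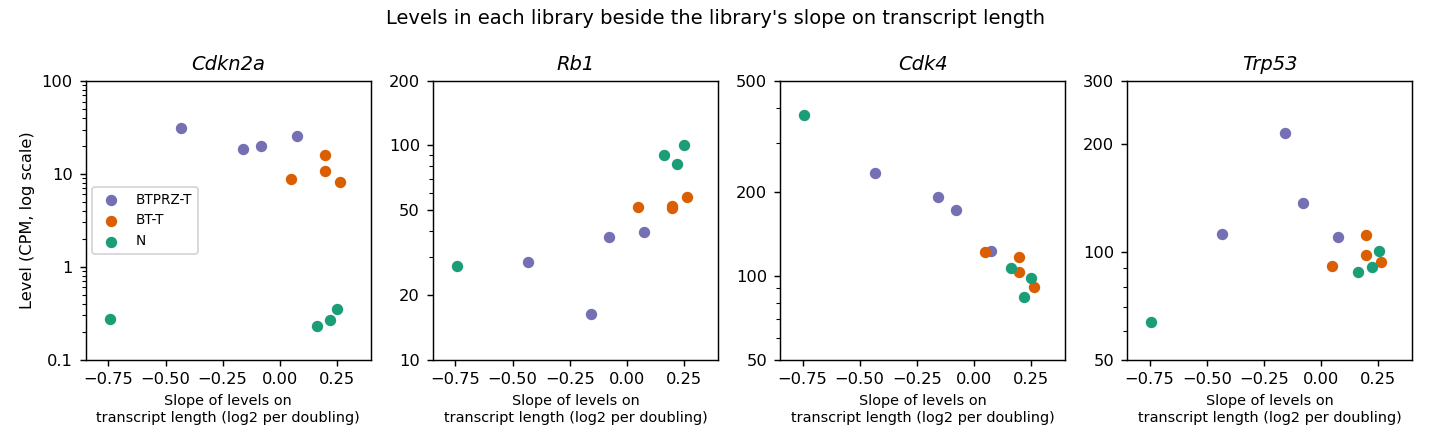
Levels (CPM, log scale) of Cdkn2a, Rb1, Cdk4 and Trp53 in each library against that library's slope of levels on transcript length (log2 per doubling). N replicate 2, at a slope of −0.743, has the highest Cdk4 (377 CPM) and the lowest Rb1 of N (27.3 CPM), and Cdkn2a in N stays at or under 0.354 CPM at every slope.

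Of 19 D cyclins, CDKs and partners outside the 10 genes, 1 rose in each tumour group against N, near the 5.66 and 5.67% of all genes called higher. It was Ccnd1 (cyclin D1, the partner of CDK4). It averaged 277 ± 59.4 CPM in BTPRZ-T, 272 ± 47.5 CPM in BT-T and 111 ± 46.4 CPM in N (SD, n = 4 each), a log2 fold change of 1.32 ± 0.34 in BTPRZ-T (edgeR adjusted p = 0.0246, 20 of 25 alternatives) and 1.29 ± 0.34 in BT-T (0.0334, 18 of 25). The BTPRZ-T call was lost without BTPRZ-T replicate 2 or 4 or N replicate 4 (up to 0.0666), and the BT-T call without BT-T replicate 2, 3 or 4 or N replicate 1 or 4 (up to 0.0983). Without N replicate 2 the BTPRZ-T count of this list was 3, and without BTPRZ-T replicate 1 it was 2. Between the tumours edgeR called 0 of 19 (2 at an unadjusted p under 0.05; 0 by DESeq2 and by limma with voom, 9 by voom with sample quality weights).

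Of 19 RB family, E2F and DREAM complex genes, 1 rose in BTPRZ-T against N, near the 5.66% of all genes called higher. It was Lin37, a DREAM subunit, at 17.8 ± 3.93 CPM in BTPRZ-T and 9.75 ± 0.961 CPM in N (0.87 ± 0.25, edgeR adjusted p = 0.0373). It passed in 10 of 25 alternatives, was lost without any 1 library other than BTPRZ-T replicate 3 and N replicate 2 (0.0547 to 0.0937), and the count of this list was 7 without N replicate 2 (3 higher, 4 lower) and 2 without N replicate 4, both lower. In BT-T against N and between the tumours edgeR called 0 (2 at an unadjusted p under 0.05 in each; DESeq2 called 2 and 1, limma with voom 0 in each, and voom with sample quality weights 7 and 10). Without N replicate 2 these counts were 3, all lower, and 3, all higher, and in BT-T against N 2 were lower without N replicate 4.

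E2F target and S phase genes, which RB1 holds back, gave no call among 25 in any comparison with edgeR. At an unadjusted p under 0.05 there were 2 in BTPRZ-T against N, 6 in BT-T against N and 13 between the tumours. DESeq2 called 1, 2 and 4 of them, limma with voom 0 in each, and voom with sample quality weights 15, 7 and 23. In the fit without N replicate 2, edgeR called 6 of the 25 in BTPRZ-T against N and 12 between the tumours, all higher. The fitted change was positive for 16 of 25 in BTPRZ-T against N, 1 of 25 in BT-T against N and 24 of 25 in BTPRZ-T against BT-T, beside 43.2, 44.0 and 48.6% of all genes tested, with medians of 0.38, −0.37 and 0.76. Their summed level was 1267, 1569, 1086 and 1613 CPM in BTPRZ-T, 938, 850.2, 1155 and 826 CPM in BT-T and 1263, 1651, 1524 and 843 CPM in N. N replicate 4 lay with the lower BT-T libraries, and the 3 groups overlapped. The 8 markers of cycling cells, such as Mki67, summed to 490.2 to 621 CPM in BTPRZ-T, 386 to 582 CPM in BT-T, with 364 to 1044 CPM in N. None was called by edgeR, DESeq2 or limma with voom, or at an unadjusted edgeR p under 0.05, and voom with sample quality weights called 1 in BTPRZ-T against N and 2 between the tumours.

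Regulators of Cdkn2a transcription include Polycomb proteins, which silence the locus, and ETS and RUNX factors, which activate it. Of 25 tested, 4 rose in BTPRZ-T against N and 3 in BT-T against N, none fell, beside 5.66 and 5.67% of all genes called higher, and edgeR called 0 between the tumours (1 at an unadjusted p under 0.05; 1 by DESeq2, 0 by limma with voom, 11 by voom with sample quality weights). When N replicate 2 was left out, edgeR called 7 in BTPRZ-T against N (4 higher, 3 lower), 5 in BT-T against N (4 higher, 1 lower) and 1 between the tumours (higher). Their median log2 fold change was 0.11 in BTPRZ-T against N, 0.21 in BT-T against N and −0.09 between the tumours. Ets1, an ETS factor that is also expressed in stromal and endothelial cells, averaged 59.2 ± 17.0 CPM in BTPRZ-T, 79.9 ± 22.6 CPM in BT-T and 18.6 ± 6.77 CPM in N (log2 fold change 1.67 ± 0.34, edgeR adjusted p = 0.00841, and 2.10 ± 0.35, 0.00306). Runx1 averaged 73.0 ± 27.97 CPM in BTPRZ-T, 83.6 ± 18.6 CPM in BT-T and 19.5 ± 8.21 CPM in N (1.90 ± 0.37, adjusted p = 0.00650, and 2.10 ± 0.37, 0.00456). The Polycomb gene Bmi1, a repressor of Cdkn2a, was also higher, at 53.9 ± 13.8 CPM in BTPRZ-T, 44.6 ± 5.98 CPM in BT-T and 26.1 ± 1.25 CPM in N (1.05 ± 0.21, adjusted p = 0.00763, and 0.78 ± 0.21, 0.0395). Its BT-T call was lost without BT-T replicate 2, 3 or 4, BTPRZ-T replicate 2 or N replicate 1, 3 or 4 (up to 0.126). Cbx7, another Polycomb repressor of the locus, was called in BTPRZ-T against N, at 41.2 ± 7.40 CPM in BTPRZ-T and 16.0 ± 4.32 CPM in N (1.37 ± 0.28, adjusted p = 0.00794). Both activators and repressors of Cdkn2a were thus among the genes that rose. The 8 endothelial markers summed to 239 to 514 CPM in BTPRZ-T, 338 to 651 CPM in BT-T, with 115 to 190.4 CPM in N, and the 9 macrophage markers to 357 to 2737 CPM in BTPRZ-T, 1098 to 1819 CPM in BT-T, with 170.1 to 653 CPM in N. Of the 8 endothelial markers, edgeR called 2 higher in BTPRZ-T against N and 4 in BT-T against N. The fitted change was positive for 5 of 8 and 8 of 8. Cdh5 alone averaged 169 CPM in BTPRZ-T and 29.8 CPM in N. The part of these markers in the regulators' values, and in that of Cdkn2a, was not tested.

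The genes whose log2 levels followed Cdkn2a most closely over the 12 libraries were Tgif1 (Pearson r = 0.985), a TGF-beta corepressor, Cers3 (0.984), a ceramide synthase, and Sema7a (0.984), a semaphorin. Each was at its highest mean in BTPRZ-T and its lowest in N. Tgif1 averaged 113 CPM in BTPRZ-T, 92.0 CPM in BT-T and 44.9 CPM in N, Cers3 15.7, 9.33 and 0.473 CPM in the same groups, and Sema7a 219, 133 and 12.3 CPM. The likeness is over points that share group, library and depth.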

How the data were processed

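RNA of 12 mouse colon libraries was sequenced as single reads of 100 bases from a stranded poly(A) kit, per the labels' protocols. Per the submitters' processing notes, bcl2fastq 2.20, STAR 2.4.2a, HTSeq, edgeR 3.16.5, limma and mm10 were used; which annotation the gene symbols come from is not stated there. The authors deposited raw read counts per gene, in an unstranded and 2 stranded columns, with no normalization. Of the stranded columns, the one that held more reads in all 12 libraries was taken; the opposite one held 0.819 to 0.994% of that number. Rows for unmapped, multimapping, featureless or ambiguous reads name no gene and were left out; featureless reads came to 12.3 to 17.9% and ambiguous reads to 0.592 to 1.57%. The multimapping row holds 0 in every library, and no source names the treatment of reads that fit several loci, so levels of near-identical copies are uncertain.

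Genes were filtered with filterByExpr by group (edgeR 4.0.16, R 4.3.3), scaled by TMM and fitted with a quasi-likelihood model (robust glmQLFit, glmQLFTest, two-sided) over all 12 libraries with 1 mean per group. Genes at a Benjamini-Hochberg adjusted p under 0.05 over 14860 genes were called, which is what rose and fell mean in the text. Variation between replicates was 0.501 (common biological coefficient). Fold changes carry an SE after ±, derived in the edgeR fit as the absolute log2 fold change over the square root of its F statistic. Levels per kilobase use the longest GENCODE M21 transcript. The length slope is over 14208 genes with a length. Likeness used log2(CPM + 0.5). The quasi-likelihood fit was checked on simulated data for BT-T against N. Those data held no length slope between libraries and no difference of BTPRZ-T, so the check does not cover these. The other tools and alternatives were not checked. The 25 alternatives change scaling, filter, strand, tool (DESeq2 1.42.0, limma 3.58.1), samples or length trend, or leave out 1 library.

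The 10 genes, lists and alternatives were chosen with earlier results of these data known. From each list, up to 4 called genes with the lowest adjusted p are named per comparison, and likeness names 3 genes for each of Cdkn2a, Cdkn1c and Rb1. Plk2, Pmaip1, Fas and the unchanged examples of lists were named after their values were seen.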

Additional observations from a re-analysis of the deposited data

Results flagged for a closer look

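Each of the 10 genes was examined in each group of 4 libraries for a library whose gap to its nearest neighbour passed Dixon's 95% critical value as a share of the group's range. Of 30 groups, 3 held one, and chance gives about 1 in 20. Cdkn1a was low in BTPRZ-T replicate 4, at 189.6 CPM, against 273 to 288 CPM in the other 3 BTPRZ-T libraries. Cdkn1b was high in N replicate 2, at 170.4 CPM, against 55.7 to 70.9 CPM in the other N libraries. Cdk4 was high in the same library, at 377 CPM, against 84.0 to 107 CPM in the others. N replicate 2 also had the lowest slope of levels on transcript length (−0.743) and the largest share of ribosomal protein reads (10.9%). The part of either in these values was not tested.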

How the results depend on the processing

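Of 750 refitted values of the 10 genes (25 alternatives in 3 comparisons), 651 kept their direction and side of the threshold, 25 passed newly and 21 no longer passed. The other 53 changed sign, and none of these passed the threshold under either setting (all adjusted p at least 0.326). Counts moved more. The main counts of genes called were 1760 in BTPRZ-T against N, 1274 in BT-T against N and 112 in BTPRZ-T against BT-T, with 3, 1 and 1 of the 10 genes and 14, 11 and 0 genes of the pathway lists. Leaving out 1 library gave 1076 to 4855, 624 to 2030 and 0 to 2714 genes, 2 to 4, 1 to 1 and 0 to 4 of the 10, and 9 to 47, 4 to 18 and 0 to 28 list genes. The highest of each range came without N replicate 2, save for the 10 genes in BT-T against N, where the count did not move. In the same order of comparisons, voom with sample quality weights called 8207, 6155 and 7732 genes, 7, 3 and 6 of the 10 and 95, 60 and 90 list genes. A further fit left out N replicate 2 and BTPRZ-T replicates 1 and 4, the 3 libraries with the fewest genes read. The counts were then 5311, 4359 and 3723 genes, 5, 2 and 3 of the 10 and 47, 35 and 31 list genes. DESeq2 called 3048, 2394 and 1217 genes, 25, 19 and 9 list genes, and 2 of the 10 between the tumours. With the compared groups alone, 647 genes and 8 list genes were called in BTPRZ-T against N, and 1568 genes, 2 of the 10 and 16 list genes between the tumours. With the length trend removed there were 24 list genes in BTPRZ-T against N, and 220 genes and 1 list gene between the tumours. Limma with voom called 226 genes between the tumours. The cause of these shifts was not tested. The median log2 fold change over all genes tested moved by at most 0.157 under any setting (BTPRZ-T against N, without those 3 libraries).

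The groups share replicate numbers 1 to 4, but the labels do not say that a number marks a shared animal or day, and deviations of same-numbered libraries correlated at −0.258 to 0.286 (different numbers, −0.340 to 0.328). With the number as a replicate block, 1160 genes were called in BTPRZ-T against N and 1 between the tumours, with 9 list genes in BTPRZ-T against N, 7 in BT-T against N, and 0 of the 10 genes between the tumours, where Cdkn1c had an adjusted p of 0.0640 (edgeR). Levels of Cdkn2a in N rest on 4 to 6 reads per library, so depth limits that side of its fold change.

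The sign changes, as log2 fold changes, were these. Without the 3 libraries they were 0.14 for Cdkn1b and −0.044 for Cdkn2c in BTPRZ-T against N, 0.23 for Cdk4, 0.12 for Cdkn2c and 0.026 for Cdkn1b in BT-T against N, and −0.17 for Cdkn2c and 0.043 for Cdkn1a between the tumours. Voom with sample quality weights gave −0.24 for Cdkn2c in BTPRZ-T against N, 0.058 for Cdk4 in BT-T against N, and −0.19 for Cdkn2c, 0.070 for Cdkn1a and −0.018 for Mdm2 between the tumours. For Cdkn1a in BTPRZ-T against N, limma with voom gave 0.073 and the replicate block 0.026. For Cdkn1a in BT-T against N, limma with voom gave 0.14, the replicate block 0.054, upper quartile scaling 0.028, no filter 0.014 and the compared groups alone 0.0088. For Cdkn2b in BTPRZ-T against N, removal of the length trend gave −0.15 and limma with voom −0.013. For Cdkn2b between the tumours, removal of the length trend gave −0.42, limma with voom −0.084, the compared groups alone −0.058, no filter −0.042, the replicate block −0.022, and DESeq2 and its size factors −0.020 each. Leaving out 1 library, BTPRZ-T against N ranged over −0.10 to 0.29 (Cdkn2b), −0.26 to 0.65 (Cdkn2c), −0.35 to 0.37 (Cdkn1a), −0.44 to 0.23 (Cdkn1b) and −0.11 to 0.90 (Cdk4). BT-T against N ranged over −0.037 to 0.16 (Cdkn2b), −0.74 to 0.059 (Cdkn2c), −0.29 to 0.43 (Cdkn1a) and −0.84 to 0.17 (Cdk4). Between the tumours the ranges were −0.15 to 0.19 (Cdkn2b) and −0.13 to 0.028 (Cdkn1a).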

Other observations

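Reads on the strand opposite to the gene were few at the Ink4a Arf locus: Cdkn2b had 16 in BTPRZ-T, 3 in BT-T and 0 in N, and Cdkn2a had 8 in BTPRZ-T, 3 in BT-T and 0 in N, summed over 4 libraries each. All those of BTPRZ-T came from replicates 2 and 3, and all those of BT-T from replicates 1 and 2. Relative to reads on the gene's own strand over all 12 libraries, they came to 0.205% for Cdkn2b and 0.389% for Cdkn2a. No test was made on them.

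Of the other promoter windows, that of Cdk4 (RefSeq, GRCm38.p6) held 4 matches to CACGTG, the E box letters that MYC and MAX bind, searched on both strands; the motif is its own reverse complement. Over all 32851 windows, 7.15% held at least 1 match. A match is a description of the letters in the window and no evidence of binding in these libraries. Windows were found for 8 of the 10 genes, not for Cdkn1c or Rb1.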
